A study of Mus musculus with 10 samples.

Results

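The genes described here encode the nuclear subunits of succinate dehydrogenase (complex II), cytochrome bc1 (complex III) and ATP synthase (complex V) of mitochondria. They were chosen by name from the array annotation: symbols that start with Uqcr, symbols made of Atp5 and a further letter, and Cyc1, Sdha, Sdhb, Sdhc and Sdhd. This gave 30 genes of 18193 measured, with 4 in complex II, 9 in complex III and 17 in complex V. RNA came from brown adipose tissue, the heat-producing fat of rodents, of 5 wild-type (WT) mice and 5 littermates labelled as knockouts (KO) of Sirt3, a mitochondrial deacetylase. All 10 mice were untreated, about 1 year old and on a 129 background, and each was read on 1 Affymetrix array. The sources used here do not give which part of the gene was removed, or whether it was removed in every tissue.

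Complex II oxidises succinate in the citric acid cycle and hands the electrons to ubiquinone. Complex III passes them on to cytochrome c and pumps protons, and complex V makes ATP as the protons flow back through its ring of c subunits. Brown fat burns fuel with much of that flow diverted through UCP1, and it is known for a low content of ATP synthase beside a large respiratory chain, which earlier work tied to scarce transcript of the subunit c gene Atp5g1. SIRT3 acts on proteins, and SDHA and ATP synthase subunits are among its known targets, whereas the arrays read transcript abundance.

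The arrays resembled each other, with correlations over probe sets from 0.988 to 0.997. Sirt3 transcript was not lower in KO: log2 signals averaged 10.13 ± 0.0995 (SD, n = 5) in the WT group against 10.32 ± 0.0722 (SD, n = 5) in the KO group. KO is thus used below as a label of the arrays, which the Sirt3 probe set did not bear out; whether it reads the removed part is not known here. Ucp1, the defining transcript of brown adipocytes, was near the top of the table, with a mean log2 signal of 14.14. Skeletal muscle transcripts differed widely between arrays. The mean of 19 muscle genes ran from 7.60 to 11.65 in WT and from 5.40 to 11.16 in KO, lowest in KO 3, KO 1 and WT 5, and all 19 were lower on average in KO with 0 called. The 3' minus 5' signal of the control transcript Pcx, a sign of RNA quality, was 2.96 to 3.44 in WT and 2.77 to 2.95 in KO, so all KO arrays lay below all WT arrays. Means of the brown adipocyte, endothelial, macrophage, white adipocyte and fibroblast markers overlapped between the groups. The brown adipocyte mean was 11.75 to 12.29 in WT and 11.75 to 11.95 in KO, with 8 of 10 genes lower in KO. On average 8 of 9 endothelial genes were higher in KO. Lower were 6 of 7 fibroblast, 4 of 7 macrophage and 3 of 5 white adipocyte genes, against 56.1% of all genes. None of these markers was called. An unadjusted p under 0.05 by limma was reached by 1 brown adipocyte, 1 endothelial, 1 macrophage, 2 fibroblast and 0 white adipocyte genes. The share of all genes was 4.68%. Among the fibroblast genes, Pi16 differed by -0.56 ± 0.12 log2 units (KO minus WT ± SE). The WT and KO values of Pi16 did not overlap, as was so for 0.627% of all genes. The part of RNA quality or of these markers in the differences below was not tested.

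No subunit gene of complexes II, III or V passed the test of KO against WT. The comparison asks whether loss of the deacetylase goes with a change in the transcripts of these machines. By limma with Benjamini-Hochberg adjustment over all genes, 0 of 30 members had an adjusted p under 0.05, and their adjusted p ran from 0.914 to 0.999. The background was also 0%, with 0 of 18193 genes called. At an unadjusted p under 0.05 there were 0 members, against 4.68% of all genes (7.79% without WT 2), and the smallest unadjusted p of a member was 0.166. The share of members and that of all genes are not like for like, as 28 of the 30 members had a within-group SD below the median of all genes. For such genes limma, which draws variances toward a shared value, gives a larger SE than their own spread would. Of the 125 genes with a mean log2 signal of at least 13, of which 21 are members, 1 had an unadjusted p under 0.05. The values of the groups overlapped in all 30 members, while 0.627% of all genes did not overlap.

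KO means were lower in 21 members and higher in 9, and 56.1% of all genes were lower. The median difference, KO minus WT, was -0.024 log2 units over the members and -0.013 over all genes. It was -0.016 for complex II, -0.020 for complex III and -0.025 for complex V, beside -0.016 for 35 measured complex I genes and -0.031 for 15 of complex IV. The lean to lower values rested in part on WT 5: without that array 17 members were lower, and also 17 without WT 4 and WT 5, where the medians were 0.00011, 0.0019 and -0.0047 for complexes II, III and V.

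The differences covered a narrow range for most of these transcripts. For the 29 members other than Atp5g1 the differences lay between -0.090 and 0.071 log2 units. Their 95% confidence intervals, unadjusted, all lay between -0.27 and 0.23, or 0.831 to 1.17 as a ratio of KO to WT. These ranges hold for the brightest probe set of each gene with all arrays: Uqcr10 was at -0.18 with the mean of its probe sets, and with the muscle mean as a covariate Atp5e was at -0.15 and Atp5g3 at 0.12, none of them called.

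**Figure D1:**
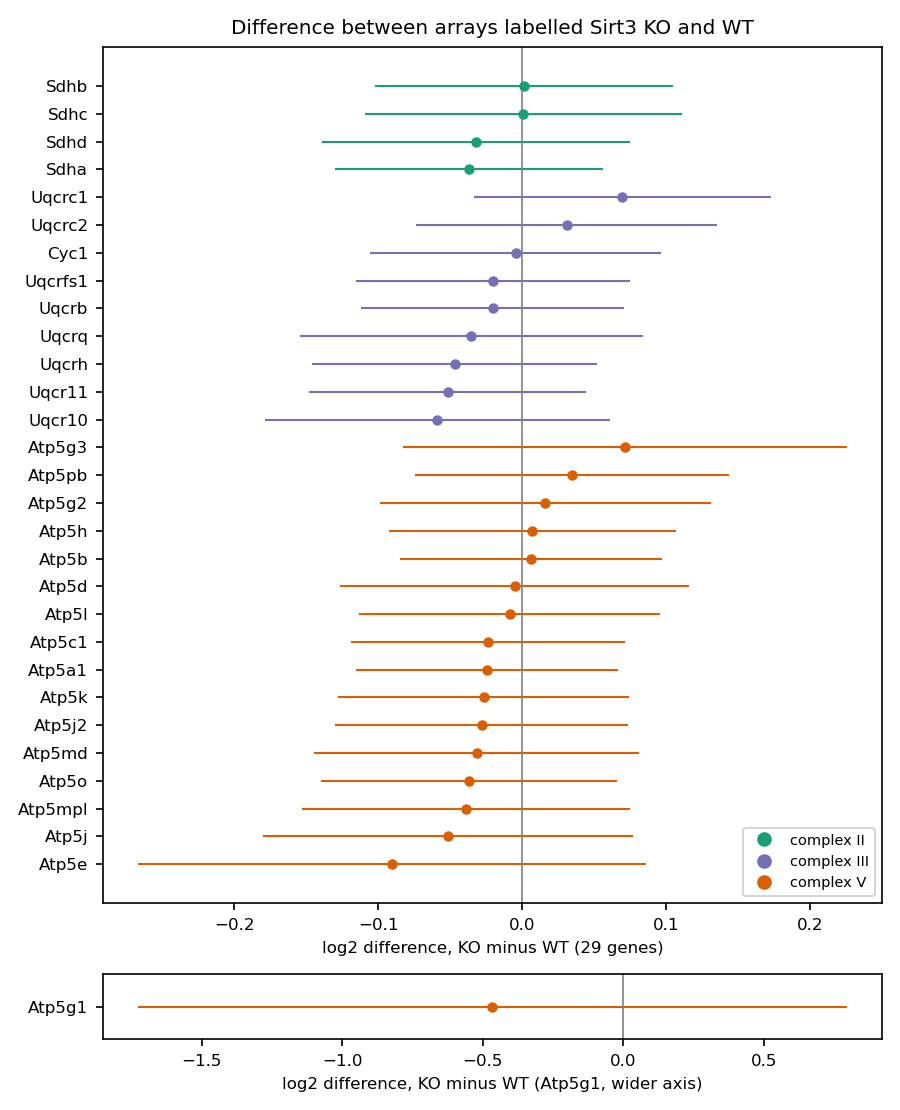
Log2 difference, KO minus WT (points), with 95% confidence intervals from limma (bars), n = 5 against 5, for 29 subunit genes coloured by complex and, on a wider axis, Atp5g1. Every interval spans 0, and that of Atp5g1, from -1.73 to 0.79, is the widest.

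In complex II, 2 of 4 genes were lower in KO on average and 2 higher, none was called, and each kept nearly the same signal in every mouse. Sdha, which encodes the flavoprotein that oxidises succinate, gave 13.44, 13.43, 13.44, 13.48 and 13.44 in WT 1 to 5 and 13.35, 13.42, 13.41, 13.42 and 13.44 in KO 1 to 5. The lowest value was KO 1, and KO 5 lay among the WT arrays. The difference of Sdha was -0.037 ± 0.042 log2 units (difference ± SE, as below), with an adjusted p of 0.938 by limma. A further bright probe set of Sdha gave 0.022, so the sign depended on the probe set.

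Sdhb, the iron-sulfur subunit, gave 13.81, 13.82, 13.85, 13.82 and 13.88 in WT and 13.80, 13.77, 13.93, 13.81 and 13.87 in KO. Its highest and its lowest array were both KO, and the difference was 0.0013 ± 0.047. Sdhc and Sdhd encode the membrane anchors that hold the ubiquinone site. Sdhc gave 12.00, 11.96, 11.92, 11.93 and 12.01 in WT and 12.08, 11.93, 11.96, 11.89 and 11.97 in KO, a difference of 0.00075 ± 0.050. Sdhd gave 12.80, 12.71, 12.77, 12.81 and 12.84 in WT and 12.85, 12.72, 12.75, 12.71 and 12.73 in KO, a difference of -0.032 ± 0.049. In KO 1 the anchors were at their highest and Sdha at its lowest on the probe sets used. The further bright set of Sdha was lowest in WT 5 (13.28) and the further set of Sdhc was highest in WT 3 (11.12). That of Sdhd was again highest in KO 1 (10.13). The signs for Sdhb and Sdhc turned under several alternatives.

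In complex III, 7 of 9 genes were lower in KO on average and 2 higher, none of them called. The 2 higher ones, Uqcrc1 and Uqcrc2, encode the large core proteins on the matrix side. Uqcrc1 had the smallest unadjusted p of all members. It gave 13.56, 13.58, 13.70, 13.64 and 13.62 in WT and 13.68, 13.73, 13.71, 13.71 and 13.63 in KO. WT 3 and WT 4 lay inside the KO range and KO 1 and KO 5 inside the WT range, and the difference was 0.070 ± 0.047 (adjusted p of limma 0.914). Uqcrc2 differed by 0.031 ± 0.048.

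The redox subunits of complex III lay near 0. Uqcrfs1, the Rieske iron-sulfur protein, differed by -0.020 ± 0.043 and Cyc1, cytochrome c1, by -0.0045 ± 0.046. Among the small accessory subunits, Uqcr11 gave 13.20, 13.21, 13.20, 13.19 and 13.29 in WT and 13.18, 13.17, 13.20, 13.16 and 13.12 in KO. WT 5 stood above all other arrays and the difference was -0.052 ± 0.044. Uqcr10 differed by -0.059 ± 0.055, Uqcrh by -0.047 ± 0.045, Uqcrq by -0.035 ± 0.054 and Uqcrb by -0.020 ± 0.042.

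Uqcr10 showed how far a value can depend on the probe set. The set used gave 13.24, 13.18, 13.30, 13.30 and 13.40 in WT and 13.19, 13.23, 13.27, 13.16 and 13.29 in KO. A dimmer set of the same gene gave 10.16, 9.96, 10.58, 10.83 and 10.97 in WT and 10.24, 10.33, 10.31, 9.91 and 10.24 in KO. WT 5 was highest in both and the dimmer set spread more widely, with a within-group SD of 0.328 against 0.0706. Its difference was -0.29 ± 0.18, and the remaining set gave -0.19 ± 0.12. The adjusted p over 34945 probe sets was 0.885 for both by limma. Whether the bright set is compressed near the top of the scale was not tested.

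**Figure D2:**
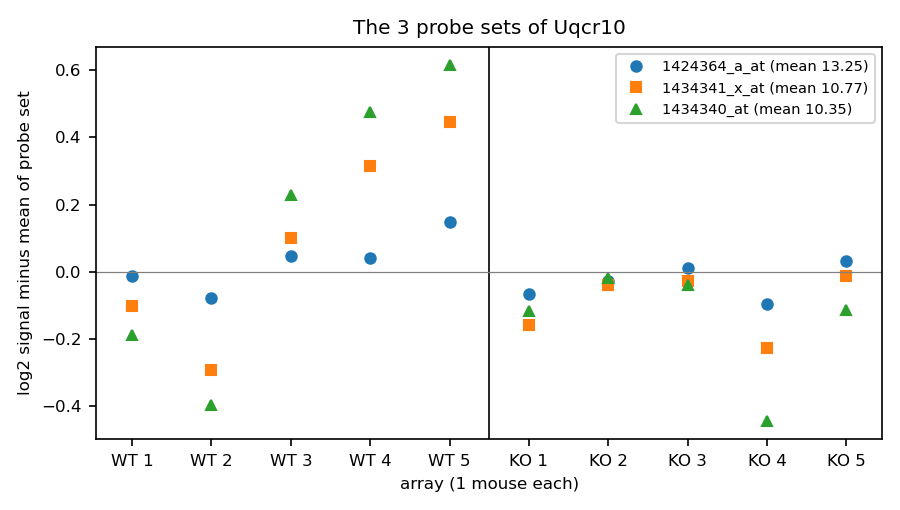
Log2 signal of the 3 probe sets of Uqcr10 in each array, as a deviation from the mean of that probe set over the 10 arrays; WT arrays are left of the line and arrays labelled Sirt3 KO right of it. WT 4 and WT 5 are high and WT 2 and KO 4 low in the 2 dimmer sets, while the brightest set moves in a narrower range.

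In complex V, 12 of 17 genes were lower in KO on average and 5 higher, and again none was called. Both large subunits of the catalytic head varied little between arrays. Atp5b, the catalytic beta subunit, differed by 0.0062 ± 0.042 and Atp5a1, the alpha subunit, by -0.025 ± 0.042, with within-group SDs of 0.0232 and 0.0231. The rotor stalk subunits gamma (Atp5c1) and delta (Atp5d) differed by -0.024 ± 0.043 and -0.0051 ± 0.055. Atp5e, the epsilon subunit of the same stalk, varied more: WT arrays gave 12.38, 12.48, 12.41, 12.40 and 12.62 and KO arrays 12.42, 12.31, 12.50, 12.12 and 12.49. WT 5 was its highest array and KO 4 its lowest, and the difference was -0.090 ± 0.080. Without KO 4 it was -0.029 and without WT 5 it was -0.049.

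The peripheral stalk, which keeps the head from turning, gave differences from -0.052 to 0.035. Atp5j (coupling factor F6) was 11.10, 11.22, 11.03, 11.06 and 10.97 in WT and 10.99, 11.14, 10.99, 11.01 and 10.995 in KO. The groups overlapped throughout, and the difference was -0.052 ± 0.059. Atp5o, the subunit that ties the stalk to the head, differed by -0.037 ± 0.047, Atp5pb (subunit b) by 0.035 ± 0.050 and Atp5h (subunit d) by 0.0072 ± 0.045. The small membrane subunits, several of which take part in joining ATP synthase dimers, were all slightly lower on average: Atp5mpl differed by -0.039 ± 0.052, Atp5md by -0.032 ± 0.052, Atp5j2 by -0.028 ± 0.046, Atp5k by -0.027 ± 0.046 and Atp5l by -0.0086 ± 0.048.

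Atp5g1 stood apart from the other members. It is 1 of 3 genes, with Atp5g2 and Atp5g3, that encode the same mature subunit c behind different import sequences. Atp5g1 gave 8.60, 9.27, 8.90, 7.75 and 6.71 in WT 1 to 5 and 6.45, 8.95, 6.76, 8.63 and 8.10 in KO 1 to 5. It thus spanned 2.82 log2 units, with low values in both groups, whereas the other 29 members spanned 0.0585 to 0.502. Means were 8.24 ± 1.02 (SD, n = 5) in WT and 7.78 ± 1.12 (SD, n = 5) in KO. The difference of -0.47 ± 0.57 had an adjusted p of 0.943 by limma and ran from -0.85 without WT 5 to -0.13 without KO 1 as single arrays were left out. Without WT 4 and WT 5 it was -1.14.

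The other subunit c genes did not share this spread. Atp5g2 gave 12.37, 12.44, 12.37, 12.29 and 12.39 in WT and 12.40, 12.39, 12.49, 12.29 and 12.38 in KO, a difference of 0.016 ± 0.053. Atp5g3 gave 12.96, 13.07, 12.94, 12.76 and 12.74 in WT and 12.93, 13.05, 12.89, 12.99 and 12.97 in KO, a difference of 0.071 ± 0.070. WT 4 and WT 5 were the low arrays of Atp5g3, and without them it was at -0.026.

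The promoters of the 3 subunit c genes are shown because they drive the same mature protein while their transcripts varied to different degrees. Each line gives the 250 bases before the RefSeq start in build GRCm38.p6, 5′ to 3′ on the gene's strand, which is the minus strand for all 3. They lie at chr11:96075632-96075881 for Atp5g1, chr15:102671048-102671297 for Atp5g2 and chr2:73911327-73911576 for Atp5g3. Capitals mark matches, on either strand, to the letters CCAAT (the CCAAT box bound by NF-Y) or to GCGC, any base and TGCGC in a row (the site of NRF1, a regulator of respiratory chain genes).
Atp5g1: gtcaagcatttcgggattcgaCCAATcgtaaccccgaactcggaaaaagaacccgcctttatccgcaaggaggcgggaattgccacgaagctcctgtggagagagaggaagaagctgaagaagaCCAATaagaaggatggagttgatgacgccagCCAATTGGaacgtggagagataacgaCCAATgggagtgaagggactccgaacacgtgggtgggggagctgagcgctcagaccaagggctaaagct
Atp5g2: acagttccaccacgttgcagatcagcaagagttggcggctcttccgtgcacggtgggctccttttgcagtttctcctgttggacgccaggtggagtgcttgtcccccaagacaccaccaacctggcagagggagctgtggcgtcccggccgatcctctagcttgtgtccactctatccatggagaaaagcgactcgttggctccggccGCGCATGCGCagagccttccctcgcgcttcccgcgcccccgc
Atp5g3: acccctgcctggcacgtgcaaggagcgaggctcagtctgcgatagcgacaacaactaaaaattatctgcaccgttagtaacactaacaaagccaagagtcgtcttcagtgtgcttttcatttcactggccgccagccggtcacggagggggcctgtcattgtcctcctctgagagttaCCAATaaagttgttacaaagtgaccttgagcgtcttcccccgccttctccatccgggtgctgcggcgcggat

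The Atp5g1 stretch held 5 matches to CCAAT, of which a pair overlap on opposite strands, and 0 to the NRF1 letters. That of Atp5g2 held 1 NRF1 match and 0 of CCAAT, and that of Atp5g3 held 1 CCAAT match; a match of Atp5g3 to the NRF1 letters lay in the 50 bases after the start, which are not printed. RefSeq windows of 300 bases matched 23 of the 30 members by gene ID; Atp5a1, Atp5mpl, Cyc1, Sdhc, Uqcrb, Uqcrc2 and Uqcrq had no entry. Of the 23, 9 (39.1%) held the NRF1 letters, among them Sdha, Sdhd and Uqcrc1, against 5.19% of 27025 genes with a window. The ETS letters CCGGAAG were in 10 (43.5%) against 9.93%, and the ERR site AAGGTCA in 5 (21.7%) against 5.38%. The CCAAT letters were in 13 (56.5%) against 41.1%, the E-box CANNTG in 15 (65.2%) against 75.0%, and the YY1 letters AANATGGCG in 3 against 2.76%. Both strands were searched. The counts are not corrected for base composition or for overlap between motifs, and a match is one of letters only.

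The arrays low in Atp5g1 were those low in skeletal muscle transcripts, a relation tested after the values were seen. The slope is the change in the log2 signal of a gene per log2 unit of the mean of the 19 muscle genes, with genotype in the fit. For Atp5g1 it was 0.434 ± 0.040 (slope ± SE, 95% confidence interval 0.346 to 0.523), with an adjusted p of 0.000136 by limma. It was 0.604 within WT, 0.378 within KO and 0.608 without KO 1 and KO 3, the arrays poorest in muscle transcripts, and Atp5g1 was called in each of these fits. Of the 30 members, 1 was called as rising with muscle transcripts, against 1.09% of all genes, or 1.19% called in either direction. Without KO 1 and KO 3 it was also 1 member, against 1.6%. With the muscle mean as a covariate, the KO minus WT difference of Atp5g1 turned to 0.21 (adjusted p 0.768 by limma). Fewer muscle cells and less muscle RNA per cell cannot be told apart in whole tissue.

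Slopes of the other 29 members lay between -0.037 (Atp5e) and 0.033 (Atp5g3), 24 of them below 0, and none was called, with a smallest adjusted p of 0.433 by limma. At an unadjusted p under 0.05 there were 3 members, Atp5g1, Atp5g3 and Atp5e, against 10.8% of all genes. The slope was -0.012 for Atp5g2 (95% confidence interval -0.039 to 0.016) and 0.033 for Atp5g3 (0.0019 to 0.064). The difference between transcripts was tested within arrays: Atp5g1 minus Atp5g2 had a slope of 0.446 and Atp5g1 minus Atp5g3 one of 0.402. An exact two-sided permutation of arrays within genotype, over 14400 orders, gave p = 0.000417 for each, and 0.000417 adjusted over the pair of tests. Atp5g1 was singled out after its values were seen and carried most of both differences, so these tests largely repeat its slope of 0.434. Atp5g2 and Atp5g3 were also brighter, with mean log2 signals of 12.38 and 12.93 against 8.01 for Atp5g1. The part of brightness in their flatter slopes was not tested. The second probe set of Atp5g1 had a mean log2 signal of 3.04 and a slope of 0.0082, so the relation rests on 1 probe set; the table holds no detection call.

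Cox6a2, the heart and muscle form of a complex IV subunit, also ran with the muscle transcripts. It gave 9.53, 10.39, 9.90, 8.35 and 7.10 in WT and 6.83, 9.72, 7.01, 9.56 and 8.71 in KO, with WT 5, KO 1 and KO 3 lowest, and a slope of 0.545 ± 0.051 (adjusted p of limma 0.000152). In complex I, 0 of 35 genes had a called slope, and in complex IV 2 of 15, Cox6a2 upward and Cox6b2 downward at -0.096 ± 0.019.

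**Figure D3:**
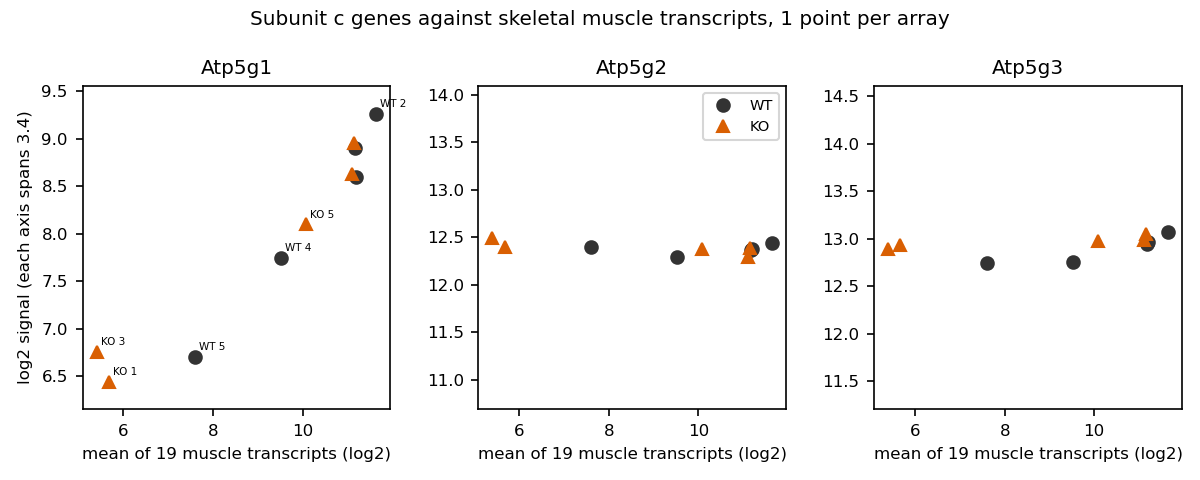
Log2 signal of Atp5g1, Atp5g2 and Atp5g3 (vertical axes of equal span) against the mean log2 signal of 19 skeletal muscle transcripts, 1 point per array (circles WT, triangles labelled Sirt3 KO). Atp5g1 runs from 6.45 in KO 1 to 9.27 in WT 2, while Atp5g2 and Atp5g3 stay nearly level.

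The members varied little between mice. Within-group SDs of the 29 members other than Atp5g1 were 0.0231 to 0.131 log2 units, and that of Atp5g1 was 1.07. The median was 0.0488 for the members and 0.124 for all genes, and 28 of the 30 lay below the latter. This went with brightness: 21 members had a mean log2 signal of at least 13, and the 125 genes of the array at that level had a median SD of 0.0504. Complex I (0.0515) and complex IV (0.0549) were alike. How much of this narrow spread comes from the top of the array's range was not tested.

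**Figure D4:**
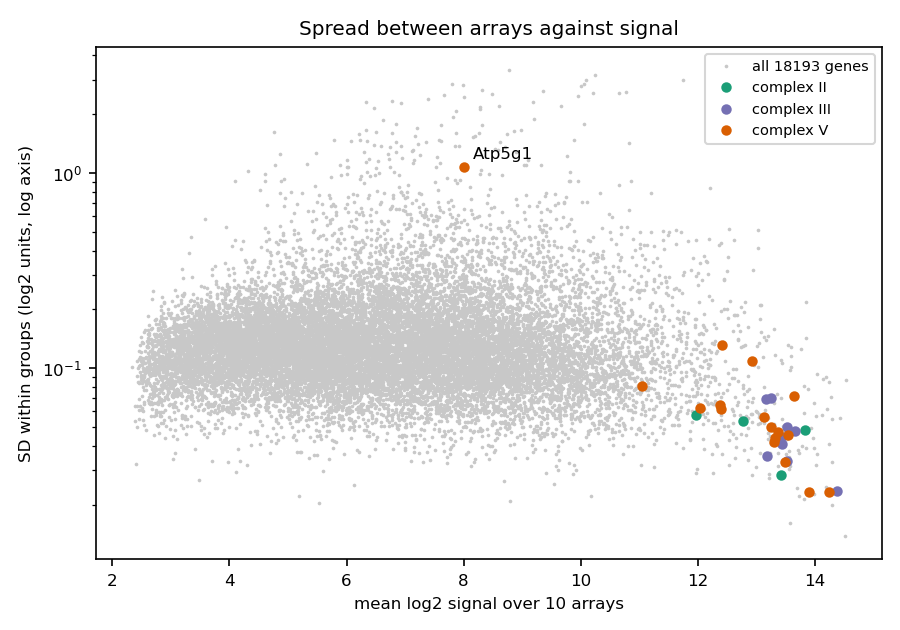
Standard deviation within groups (log axis) against mean log2 signal over 10 arrays for 18193 genes (grey) and the subunit genes of complexes II, III and V (colours). The members lie at the bright, low-spread end, except Atp5g1, whose SD is 1.07.

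Within that narrow range the members shared part of their variation, a pattern noted after the values were seen. WT 5 was the highest array for 14 of 30 members (46.7%), against 15% of all genes and 26.4% of genes with a mean log2 signal of at least 13. Those bright genes include 21 of the members, so they are not a separate background. WT 5 was highest for 12 members after quantile normalization (16.0% of all genes) and for 12 after centring arrays on their medians (13.6% of all genes). The median deviation of the 29 members from their own means was 0.052 log2 units in WT 5 and between -0.037 (KO 4) and 0.017 (WT 4) in the other arrays. Genes of complex I (14 of 35) and complex IV (8 of 15) were also often highest in WT 5. The mean of 10 measured brown adipocyte markers was highest there too, at 12.29, in a range of 11.75 to 12.29 in WT and 11.75 to 11.95 in KO; the part of that in the result was not tested. KO 4 was lowest for 10 members (33.3%), against 14.2% of all genes and 23.2% of genes with a mean log2 signal of at least 13. It was lowest for 5 members after quantile normalization (12.7% of all genes) and for 12 after centring (15.8%), so that count depended on the scaling.

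**Figure D5:**
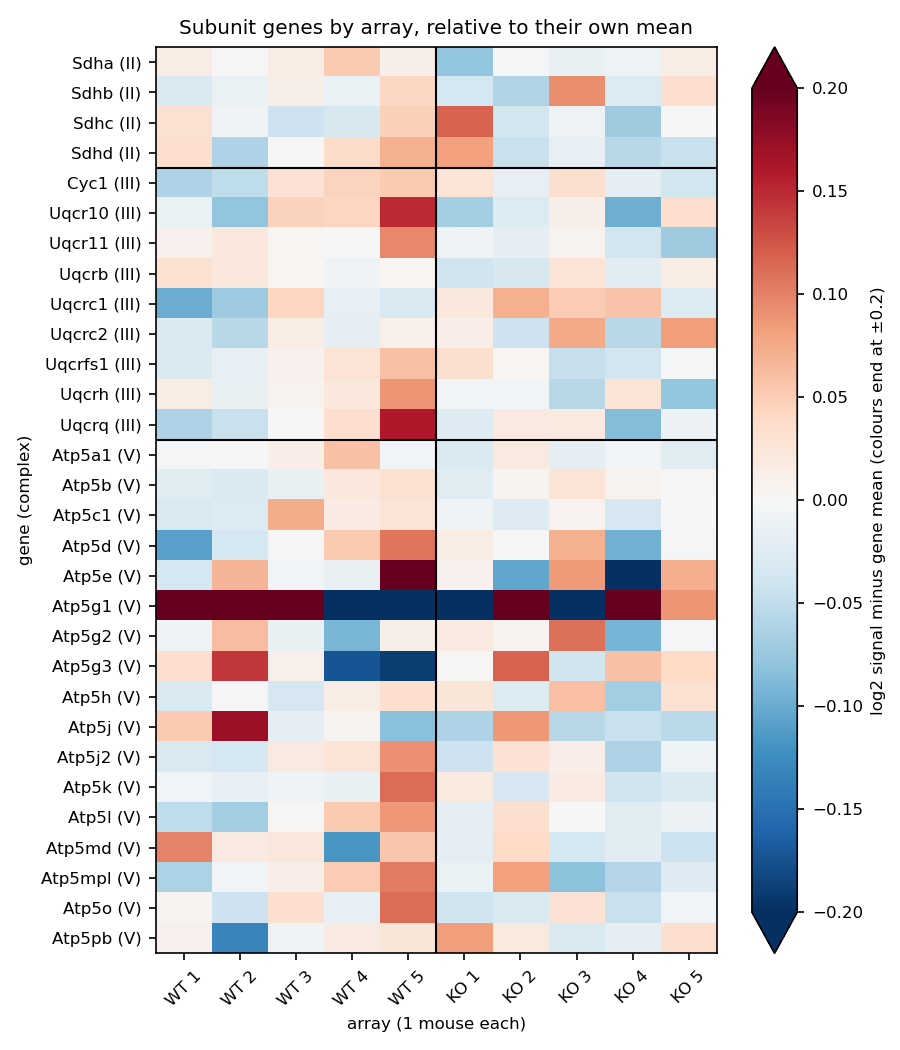
Log2 signal of each of the 30 subunit genes in each of the 10 arrays, as a deviation from the mean of that gene; colours end at ±0.2, beyond which Atp5g1 lies in 9 arrays. Many genes of complexes III and V are high in WT 5, and Atp5g1 has high and low values within both groups.

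Most further probe sets of the members also lay near 0. The annotation gave 57 probe sets for the 30 genes, with several for 18 of them, and 10 of the 18 had a further set with the other sign. Of the 27 not used, 11 had a mean log2 signal under 8, and the other 16 gave differences from -0.29 (Uqcr10) to 0.081 (Atp5o). No probe set of a member was called over 34945 probe sets by limma, and 1 had an unadjusted p under 0.05, a dim set of Atp5g2 (mean 5.24, difference -0.27 ± 0.12), against 5.41% of all probe sets.

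Genes for proteins that assemble or serve these complexes were not called either. For the assembly factors of complex II, 4 of 4 were lower with a median of -0.053, led by Sdhaf2 at -0.071 ± 0.067. All 4 were lowest in KO 4, as were 14.2% of all genes. Their mean was 9.30 in KO 4, against 9.44 to 9.57 in the other KO arrays and 9.43 to 9.63 in WT. For those of complex III, 4 of 6 measured were lower with a median of -0.0072; Ttc19, needed for turnover of the Rieske protein, differed by -0.18 ± 0.078. For complex V, 3 of 5 measured were lower with a median of -0.023; Atpif1, the inhibitor that stops the enzyme from running backwards, differed by 0.19 ± 0.10 and the assembly factor Tmem70 by -0.090 ± 0.056. Of 12 measured genes for electron carriers and coenzyme Q synthesis, 9 were lower with a median of -0.070, among them Coq3, a methyltransferase of coenzyme Q synthesis, at -0.28 ± 0.090, and Etfdh, which feeds electrons from fatty acid oxidation to ubiquinone, at -0.14 ± 0.066. Of 10 transcriptional regulators of respiratory chain genes, 6 were lower with a median of -0.040, among them Gabpa, an ETS factor, at -0.19 ± 0.097. By limma, 0 of these 37 genes had an adjusted p under 0.05, and 3 had an unadjusted p under 0.05, Ttc19, Coq3 and Sp1 (-0.25 ± 0.11), beside the background of 4.68%.

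Of the neighbouring complexes, 26 of 35 measured complex I genes and 13 of 15 of complex IV were lower on average, against 56.1% of all genes and 60% of those with a mean log2 signal of at least 13, with 0 called in either. Without WT 5 these counts were 22 and 12, and without KO 4 they were 19 and 13. Ndufb1, an accessory subunit of complex I, differed by -0.12 ± 0.046 (adjusted p 0.914 by limma) on a probe set with a mean log2 signal of 7.16. Its groups did not overlap, as was so for 0.627% of all genes, while the groups overlapped for Cox4i2 and Cox7c of complex IV. Cox4i2, an isoform of a regulatory subunit, differed by -0.12 ± 0.060, and Cox7c, a small subunit, by -0.25 ± 0.14 on a probe set with a mean log2 signal of only 5.81.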

How the data were processed

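Per the submitters' processing notes, the deposited values were made with RMA, which corrects background, normalizes arrays and summarises probe sets; the sources used here name neither software nor version. The deposited values are log2 signals, with array medians from 5.58 to 5.61 and no detection call. Of 45101 probe sets, 34945 carried 1 gene symbol; the set with the highest mean over 10 arrays was kept per gene (18193 genes). Differences are KO minus WT from limma 3.58.1 in R 4.3.3 (lmFit and eBayes, two-sided, no covariate), adjusted over all genes, with 0.05 as threshold; the slope on muscle transcripts used the same fit with genotype. The fit was tested on simulated data. The number of arrays limits the precision. Per the labels each array is a littermate mouse. The p-values and SEs of limma rest on the spread between these arrays after each gene's variance was drawn toward a value shared by all genes. For genes of small spread, as most members are, the SE is thus larger than their own arrays would give.

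The members and lists were chosen with earlier results of these data known. Every member was named; array values were given for complex II, for the 3 and 4 smallest unadjusted p of complexes III and V, and for subunit c. Of each list the 2 genes with the smallest p could be named; Cox6a2 and Cox6b2 were chosen after their values were seen. Background correction could not be varied from these values.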

Additional observations from a re-analysis of the deposited data

Results flagged for a closer look

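In 6 of 60 groups of 5 arrays (30 members, 2 groups each) the highest or lowest value lay apart from the others by the gap it left, where chance gives about 1 in 20. Uqcr11 was 13.29 in WT 5, above the next value of 13.21, and Atp5k was 13.44 in WT 5, above 13.32. Atp5pb was 13.005 in WT 2, below the next value of 13.13. Among arrays labelled KO, Atp5j was 11.14 in KO 2, above 11.01, Atp5md was 12.44 in KO 2, above 12.38, and Sdhd was 12.85 in KO 1, above 12.75. All 6 gaps are small, and Atp5g1, the most variable member, had no such value.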

How the results depend on the processing

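In the comparison of KO with WT, under all 20 alternatives 0 genes, and so 0 members, were called, and 0 members had an unadjusted p under 0.05; the smallest adjusted p of a member was 0.614, by limma with the muscle covariate. The count of all genes at an unadjusted p under 0.05 was 851 and ranged from 524, where dim genes were left out and 10494 were tested, to 1501 with the muscle covariate; with single arrays left out it was 611 to 1418, highest without WT 2. The sign of the difference held in 11 members and turned in 19 under at least 1 alternative. After quantile normalization, the sign turned for Cyc1 (0.0053). After centring, the sign turned for Sdhb (-0.0032) and Sdhc (-0.0038). With the mean of all probe sets, the sign turned for Atp5g2 (-0.10), Atp5o (0.022), Sdha (0.060), Sdhc (-0.0038) and Sdhd (0.0029). Without _s_at, _x_at and _a_at sets, the sign turned for Atp5h (-0.00015), Atp5pb (-0.0082) and Uqcrb (0.012). With the muscle covariate, the sign turned for Atp5g1 (0.21), Atp5g2 (-0.0020), Atp5h (-0.014), Sdhb (-0.016) and Sdhc (-0.024). Without WT 4 and WT 5, the sign turned for Atp5d (0.046), Atp5g2 (-0.0047), Atp5g3 (-0.026), Atp5j2 (0.0019), Atp5l (0.035), Cyc1 (0.026), Uqcrfs1 (0.0019) and Uqcrq (0.018). Without WT 5, KO 1 and KO 3, the sign turned for Atp5g2 (-0.016), Atp5h (-0.0091), Atp5l (0.016), Atp5mpl (0.00028), Sdhb (-0.0071) and Sdhc (-0.023). With single arrays left out, it turned for Sdhb (-0.022 to 0.017), Atp5b (-7.8e-05 to 0.015), Sdhc (-0.029 to 0.019), Atp5h (-0.0069 to 0.025), Cyc1 (-0.021 to 0.0080), Atp5d (-0.033 to 0.021), Atp5g2 (-0.0095 to 0.042), Atp5l (-0.027 to 0.012) and Uqcrq (-0.055 to 0.00041). The cause was not tested. The slope of Atp5g1 on muscle transcripts stayed between 0.399 and 0.488 with single arrays left out; without _s_at, _x_at and _a_at sets, which leaves its dim second set, it was 0.0082 (adjusted p 0.928 by limma) and 0 of 24 members were called. With the replicate number as a block, 0 members were called, 736 genes had an unadjusted p under 0.05 and the slope of Atp5g1 was 0.421. Deviations of arrays with the same number correlated from -0.40 to 0.24, and 0 of 5 WT arrays correlated best with their own number. Wide differences between arrays, such as those in muscle transcripts, enter these correlations. Whether the numbers pair the mice can therefore not be told from them. Low signals have no stated floor, which limits the dim probe sets.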
